A study of Mus musculus with 36 samples.

Results

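The Th17 core genes examined here are Rora, Il17a, Il17f, Il22, Il23r, Il1r1 and Il17re. They were matched by gene name, and all 7 were found among the 56748 genes of the expression table, of which 37436 had counts. Th17 cells are CD4+ helper T cells that secrete IL-17 family cytokines at barrier surfaces and in inflamed tissue. IL-6 and TGF-β start the program through STAT3 and nuclear receptors such as RORα, and IL-1 and IL-23 then sustain it through their receptors. The members cover these roles: Rora encodes the transcription factor RORα, Il17a, Il17f and Il22 encode secreted cytokines, Il23r and Il1r1 encode receptors for the inducing cytokines, and Il17re encodes a receptor chain for IL-17C.

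RNA was sequenced from splenic CD4 T cells of mice of 2 lines, kept on a mixed 129/Sv and C57BL/6 background, with adult male littermates as donors. In the HP1a line the floxed gene was deleted in the germline through CMV-cre (HP1a KO, with HP1a WT littermates). In the HP1g line it was deleted through Cd4-cre, which acts in T cells from the thymus on (HP1g KO), and the HP1g WT littermates carried the floxed alleles without the cre. Each genotype was sampled in 3 states. Naive cells came straight from the spleen of the mutant or control animals. Tconv were the same kind of naive cell after transfer, together with bone marrow of both C57BL/6 and B6D2F1 donors, the latter partly foreign to the T cells, into lethally irradiated C57BL/6 hosts, and were sorted weeks later as Vβ6+ donor-derived cells, Vβ6 being a T cell receptor chain that recognises a superantigen of the allogeneic marrow. Tconv with Treg were sorted from hosts that also received expanded wild-type Treg carrying Thy1.1, a mark that the sort then used to remove them. Since irradiated hosts retain some cells of their own and the populations are sorted, each library is a bulk sample, in which fewer cells of a type and less RNA per cell cannot be told apart. There were 12 groups of 3 libraries, except Tconv with Treg of HP1g KO, which had 2 because the study excluded 1 library for abnormal quality. The labels do not say which animals or hosts gave each library, so p-values measure the spread between these libraries. The lines were not compared within a known batch. The paper also states that the Treg ratio of its HP1g experiment did not effectively repress the response of wild-type cells. Line, batch and any difference in Treg ratio cannot be told apart.

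The 35 libraries held between 37029477 and 63042165 estimated counts (median 46844629), so that 3 counts were worth 0.0451 to 0.0819 CPM, the count scaled to its library's size. Cbx5, which encodes HP1α, had 9.20 to 19.7 CPM in HP1a KO and 18.5 to 61.8 CPM in HP1a WT libraries, and Cbx3, which encodes HP1γ, had 60.5 to 80.8 CPM in HP1g KO and 79.1 to 199 CPM in HP1g WT libraries. Within each of the 3 states, all KO libraries lay below all WT libraries for the targeted gene. These are counts over the whole gene, exons outside the deletion included. Cd4 (630 to 1334 CPM over all libraries) marked every library as CD4 T cells, and Trbv19, the Vβ6 segment, had 35.7 to 69.4 CPM in naive and 311 to 583 CPM in grafted libraries. The summed level of 6 Th1 core genes (Tbx21, Ifng, Cxcr3, Il12rb2, Stat4 and Hlx) was 563 to 1735 CPM in the grafted libraries, against 112 to 186 CPM in the naive libraries.

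The first comparison asked what happened to the members when naive cells became allogeneic Tconv. Naive cells expressed Rora at a low level and were at or near 0 for the other 6 members, and in Tconv all 7 had counts in every library. Over the 12 naive libraries, Il17a and Il22 had 0 counts in each, which allows up to 3 counts per library. Il23r had 1 count in each of 2 naive libraries and 0 in the other 10, and Il1r1 had at most 8 counts, Il17f at most 12 and Il17re at most 15. Rora had 9.33 to 14.01 CPM in naive libraries and 152 to 378 CPM in Tconv.

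Rora rose in Tconv in all 4 genotype groups. Its log2 fold change was 4.43 (SE 0.189, adjusted p = 1.17e-06) in HP1a WT, 4.19 (SE 0.363, adjusted p = 0.000278) in HP1a KO, 4.46 (SE 0.160, adjusted p = 3.00e-06) in HP1g WT and 4.95 (SE 0.152, adjusted p = 1.87e-07) in HP1g KO, from the quasi-likelihood test of edgeR, with p adjusted over all genes by the Benjamini-Hochberg method. A gene was called when its adjusted p was under 0.05 and its fold change above 1 on the log2 scale. Of the members, 6 passed the low-count filter in each of these fits and 6 were called, against 23.1% of 16027 genes in HP1a WT, 19.7% of 15773 in HP1a KO, 23.5% of 15812 in HP1g WT and 23.1% of 15912 in HP1g KO. The 5 called members other than Rora passed the filter only through the Tconv libraries and so had to differ. Il17f was too low to be tested. Markers of other cells moved in the same comparisons: 4 to 5 of 9 γδ and innate-like markers and 7 to 8 of 9 innate lymphoid markers were called higher in each genotype group, as were 6 to 8 of 10 myeloid markers in all but HP1a WT (0) and 5 to 6 of 6 erythroid markers in the HP1g line (0 in the HP1a line). Called lower were Trdc, the constant segment of the δ chain, in all but HP1g KO, and 5 erythroid markers and Itgam in HP1a WT. Summed erythroid markers reached 4974 CPM in HP1g WT Tconv. The part of these cells in the levels of the members was not tested.

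For the other members the size of the difference from naive cells is bounded by the counts. Against the limit of 3 counts over a naive group, Il22 was at least 474-fold higher in Tconv of HP1a WT, 433-fold in HP1a KO, 306-fold in HP1g WT and 836-fold in HP1g KO. Il17a was at least 154-fold higher in HP1a WT, 425-fold in HP1a KO, 147-fold in HP1g WT and 152-fold in HP1g KO. Most Il17a counts of HP1a KO were in replicate 1 of Tconv (1192 of 1340), and the bound was 65.5-fold without it and 698-fold without replicate 3. In HP1a WT, leaving out replicate 2 of Tconv gave bounds of 276-fold for Il22 and 95.7-fold for Il17a. Leaving out the deepest naive library, which raises the limit, gave bounds for Il22 of 295-fold in HP1a WT, 268-fold in HP1a KO, 189-fold in HP1g WT and 502-fold in HP1g KO (replicates 3, 3, 2 and 1), and for Il17a of 95.7-fold, 263-fold, 90.8-fold and 91.5-fold. Il17f started from 8 to 15 counts a group, and its ratio rests on single libraries. It was 7.94 (95% counting interval 4.14 to 16.8) in HP1a WT, 15.1 without naive replicate 1 and 4.94 without naive replicate 3. In HP1a KO it was 15.5 (8.66 to 30.5), but 3.43 (1.71 to 7.34) without Tconv replicate 1, which held 164 of the 195 counts. It was 26.1 without Tconv replicate 3, 42.6 without naive replicate 1 and 9.57 without naive replicate 3. In HP1g WT it was 9.44 (4.58 to 22.6), but 1.71 (0.606 to 4.98) without Tconv replicate 1. In HP1g KO it was 5.07 (2.89 to 9.49), and 15.2 without naive replicate 1. Il17f in Tconv overlapped the naive libraries in HP1a KO, HP1g WT and HP1g KO. For Il17re the ratio was 503 (300 to 922) in HP1a WT and 83.5 (53.3 to 139) in HP1g KO. In HP1a KO it was 161 (108 to 252), but 41.3 (27.5 to 64.9) without Tconv replicate 1, which held 3314 of the 4060 counts. It was 266 there without naive replicate 3. In HP1g WT it was 225 (103 to 613), 918 without naive replicate 1 and 139 without naive replicate 2. Intervals and limits cover counting error only.

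**Figure D1:**
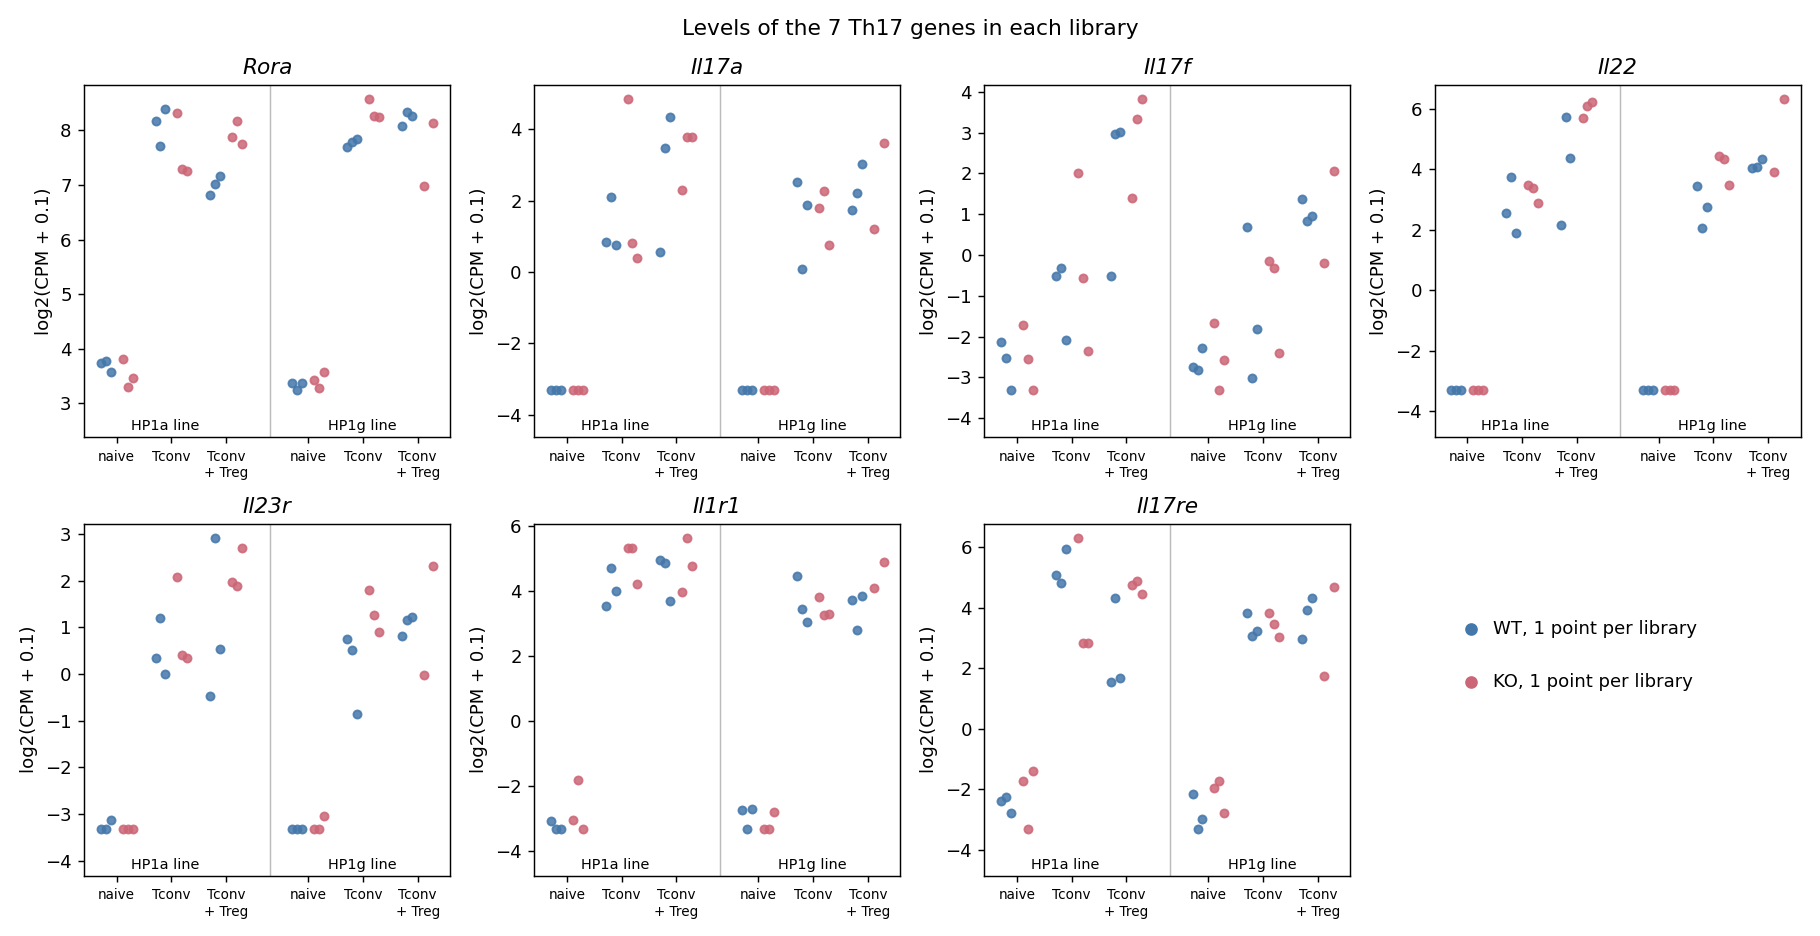
Level of each of the 7 genes as log2(CPM + 0.1), 1 point per library, in naive cells, Tconv and Tconv with Treg of the HP1a line (left of each panel) and HP1g line (right), WT in blue and KO in red. Rora is the only member clearly present in naive libraries (9.33 to 14.01 CPM), and Il17f and Il23r are the lowest after grafting (medians 0.799 and 1.75 CPM over the grafted libraries).

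Per base of exon, Rora and Il22 led in the grafted cells. The median over the 23 grafted libraries, in CPM per kilobase of exon, was 16.3 for Rora and 13.5 for Il22. It was 3.56 for Il17a, 2.41 for Il17re and 2.34 for Il1r1. Il23r (0.540) and Il17f (0.375) were lowest. These levels rest on all annotated exons of a gene, which for Rora add up to 14471 bases.

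Rora lies on chromosome 9 (positions 68561068 to 69295528, plus strand, GRCm39), and its product is a nuclear receptor that binds DNA. In Tconv of HP1a WT it had 287, 209 and 336 CPM, and with Treg 113, 129 and 143 CPM. The groups did not overlap: every library with Treg lay below every library without. In HP1a KO it had 320.0, 156 and 152 CPM without Treg and 235, 289 and 216 CPM with Treg, with overlapping groups. In HP1g WT the order was the opposite of that in HP1a WT, with 207, 220 and 231 CPM without Treg and 271, 324 and 306 CPM with Treg, again without overlap. HP1g KO had 378, 306 and 302 CPM without Treg and 126 and 282 CPM with Treg, both below the lowest library without Treg. In groups this small, such separation can also arise by chance. The share of all genes separated in the same comparison is not given here. For Rora and the other members, separation or overlap of groups is therefore a description and not a test.

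Rora fell with Treg in HP1a WT, by 1.07 on the log2 scale (SE 0.206, adjusted p = 0.0225). It was the 1 member of 7 called in this comparison, against 5.96% of 15627 genes. The call was lost when any of 4 of the 6 libraries was left out, with adjusted p = 0.105 without Tconv replicate 1, 0.105 without Tconv replicate 3, 0.0769 without Tconv with Treg replicate 1 and 0.0560 without Tconv with Treg replicate 2. In HP1a KO the change was 0.25 (SE 0.314, adjusted p = 0.765), in HP1g WT 0.45 (SE 0.0934, adjusted p = 0.694) and in HP1g KO -0.69 (SE 0.345, adjusted p = 0.712), none of them called.

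The Treg effect on Rora differed between the WT cells of the lines. The difference, HP1a WT minus HP1g WT, was -1.54 (SE 0.235, adjusted p = 0.00948, edgeR), and Rora was the 1 member of 7 called, against 1.56% of 17127 genes. It was called with each of the 12 libraries left out in turn, from -1.71 to -1.38. Whether HP1a KO cells responded otherwise than HP1a WT cells was tested as an interaction, which was 1.33 (SE 0.387, adjusted p = 0.231) and not called. It was 1.75 (adjusted p = 0.0454) without replicate 1 of HP1a KO Tconv, a library described further on, and not called with any other library left out. The same interaction in the HP1g line was -1.17 (SE 0.356, adjusted p = 0.99996). The HP1g KO group with Treg has 2 libraries far apart in Rora, and either of them alone, assumed to vary like the other groups, gave a different value: -1.85 (adjusted p = 0.0229) without replicate 2 and -0.71 (adjusted p = 0.99997) without replicate 1.

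With Treg, Rora was higher in every HP1a KO library than in every HP1a WT library, by 0.92 on the log2 scale (SE 0.174, adjusted p = 0.0921). That misses the threshold, and it was called without replicate 3 of HP1a WT with Treg (1.02, adjusted p = 0.0446). With any other library left out it was not called. In HP1g the KO effect was -0.56 with Treg (SE 0.331, adjusted p = 0.584). It was -1.28 without replicate 2 of the KO group and -0.10 without its replicate 1, each leaving 1 KO library. Without Treg, the KO effect was -0.39 (SE 0.357, adjusted p = 0.782) in HP1a and 0.61 (SE 0.115, adjusted p = 0.206) in HP1g, where the KO libraries all lay above the WT libraries. The difference of the KO effects with Treg, HP1a minus HP1g, was 1.49 (SE 0.384, adjusted p = 0.0670), 2.19 (adjusted p = 0.00412) without replicate 2 of HP1g KO with Treg and 1.05 (adjusted p = 0.172) without its replicate 1, each leaving that group with 1 library. In naive cells, Rora differed by -0.15 (SE 0.182, adjusted p = 0.9999) in HP1a and 0.14 (SE 0.169, adjusted p = 0.722) in HP1g. By group mean, grafted Rora ran from 128 CPM (HP1a WT with Treg) to 329 CPM (HP1g KO without Treg), and each group overlapped its neighbour in that order.

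Other markers moved with Rora in HP1a WT. The summed level of 8 Treg markers was 453 to 561 CPM without Treg and 852 to 1038 CPM with Treg, and 2 of the 8 were called higher: Ikzf2 by 3.82 (adjusted p = 0.00500) and Ctla4 by 2.42 (adjusted p = 0.000520). None of the 8 was at 0 in every library of either group. These 2 genes were also called higher in the difference between the WT cells of the lines, Ikzf2 by 3.10 (adjusted p = 0.0289) and Ctla4 by 1.65 (adjusted p = 0.0173). In HP1g WT the 8 markers summed to 443 to 612 CPM without and 544 to 631 CPM with Treg. In HP1a WT, Foxp3 itself had 4.46 to 12.1 CPM without and 13.3 to 68.7 CPM with Treg. In the same HP1a WT libraries, the 10 myeloid markers summed to 7.86 to 9.12 CPM without and 27.5 to 64.6 CPM with Treg. Of the 7 tested, 3 were called higher (Cd14, Cd68 and Tyrobp), and 1 of the 10 was at 0 in every library without Treg. The 6 erythroid markers summed in HP1a WT to 1.80 to 3.48 CPM without and 2.62 to 49.9 CPM with Treg. Other lists were lower with Treg, as Rora was: the 9 innate lymphoid markers summed to 2607 to 3013 CPM without and 846 to 1721 CPM with Treg (Gata3 and Il1rl1 called lower, Tnfsf4 higher), the 4 CD8 T and NK markers to 90.0 to 166 CPM and 21.2 to 51.1 CPM (Klrk1 called lower), and the 6 Th1 core genes to 1233 to 1484 CPM and 848 to 963 CPM (Tbx21 and Il12rb2 called lower). Between HP1a KO and HP1a WT with Treg, where Rora did not overlap, other summed levels did not overlap either. The 8 markers of CD4 T cells, Cd4 among them, summed to 7019 to 7416 CPM in KO and 8434 to 9096 CPM in WT. In HP1a WT without Treg they summed to 7354 to 7865 CPM. Myeloid markers summed to 175 to 543 CPM in KO and 27.5 to 64.6 CPM in WT, erythroid markers to 113 to 703 CPM and 2.62 to 49.9 CPM, and Treg markers to 448 to 643 CPM and 852 to 1038 CPM, with 0 genes of the 3 lists called. The part of these cells in the Rora results was not tested.

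**Figure D2:**
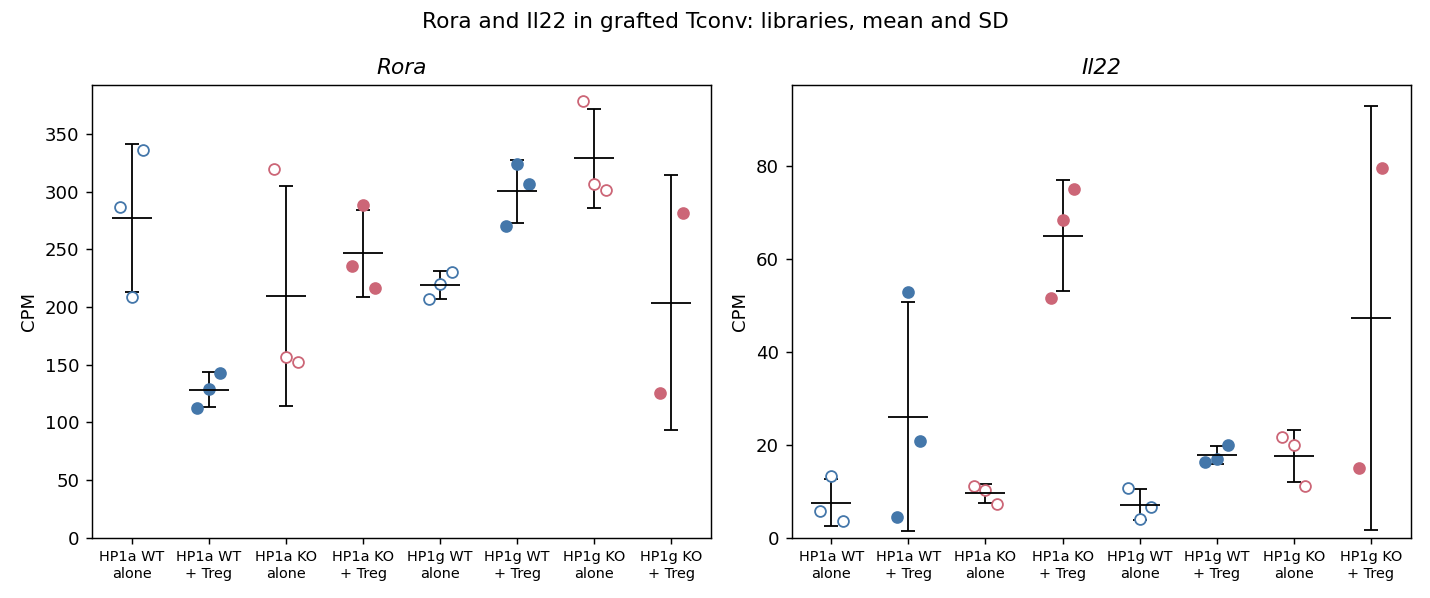
CPM of Rora (left) and Il22 (right) in each grafted library (points, open without Treg and filled with Treg), with the group mean and SD (black). Rora with Treg is below Tconv alone in HP1a WT (mean 128 against 277 CPM) and above it in HP1g WT (300.3 against 219 CPM), and Il22 with Treg is above Tconv alone in HP1a KO (65.0 against 9.54 CPM).

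Il22 lies on chromosome 10 (118040847 to 118045952, plus strand), and its product acts on epithelial cells rather than on leukocytes. In HP1a KO it had 11.1, 10.3 and 7.22 CPM without Treg and 51.7, 68.4 and 75.0 CPM with Treg. Every library with Treg lay above every library without, with a wide gap between the groups. Il22 rose there by 2.79 (SE 0.207, adjusted p = 0.00755), the 1 member of 7 called, against 0.44% of 16133 genes. The call was lost without replicate 3 of the group with Treg (2.67, adjusted p = 0.0585) and when all HP1a libraries shared 1 fit (2.78, adjusted p = 0.112), and it held with each of the other 5 libraries left out.

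In HP1a WT, Il22 had 5.81, 13.3 and 3.62 CPM without Treg and 4.39, 52.9 and 20.8 CPM with Treg. These groups overlapped, and replicate 2 with Treg stood highest. HP1g WT had 10.7, 4.03 and 6.64 CPM without and 16.4, 17.0 and 20.1 CPM with Treg, groups that did not overlap, with a log2 fold change of 1.32 (SE 0.333, adjusted p = 0.694) that DESeq2 called (1.32, adjusted p = 0.00861). In HP1g KO it had 21.6, 20.005 and 11.2 CPM without and 15.02 and 79.5 CPM with Treg. The mean with Treg was higher than without in all 4 genotype groups and was called in HP1a KO, but the interaction between HP1a genotype and Treg was not called for Il22 (adjusted p = 0.782), so the response of HP1a KO cells is not shown to differ from that of HP1a WT cells.

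Without Treg, all HP1g KO libraries had more Il22 than all HP1g WT libraries, by 1.32 (SE 0.401, adjusted p = 0.415), which edgeR did not call and DESeq2 did (1.30, adjusted p = 0.0204). Reads of Il22 can be shared with its near-identical copy Il22b, on the opposite strand 79581 bases away. Il22b also rose with Treg in HP1a KO, by 3.12 (SE 0.246, adjusted p = 0.00755), from 1.72, 2.46 and 1.75 CPM to 14.4, 21.5 and 14.8 CPM. With the counts of both genes summed, an alternative chosen after seeing the data, the rise in HP1a KO was 2.85 (SE 0.186, adjusted p = 0.00348), and no call for Il22 changed in the comparisons in which it was tested.

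Markers of other cells beside the Il22 result were as follows. In HP1a KO the 10 myeloid markers summed to 15.1 to 175 CPM without Treg and 175 to 543 CPM with Treg, with 0 of 10 called. The 9 markers of innate lymphoid cells, which can make IL-22, summed to 2483 to 2763 CPM without and 1138 to 1940 CPM with Treg, a list that includes Gata3 and Id2, which T cells express. The 9 markers of γδ and innate-like T cells in the table summed to 49.3 to 71.3 CPM without and 41.4 to 72.6 CPM with Treg. Of these, 0 of 5 tested were called with Treg, and 1 was at 0 in every library without Treg and none with Treg. The 6 erythroid markers summed to 26.6 to 769 CPM without and 113 to 703 CPM with Treg. The part of such cells in the Il22 result was not tested. By group mean, grafted Il22 ran from 7.13 CPM (HP1g WT without Treg) to 65.0 CPM (HP1a KO with Treg), and neighbours in that order overlapped except HP1a KO (9.54 CPM) and HP1g KO (17.6 CPM) without Treg.

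Il17a (20801129 to 20804720, plus strand) and Il17f (20847368 to 20860841, minus strand) are neighbours on chromosome 1, with 42647 bases between them, and encode cytokines that form homodimers or a shared heterodimer and make stromal and epithelial cells recruit neutrophils. They are shown by sequence because they varied together. Each window is the 200 bases before the start of the gene's canonical transcript (GRCm39, GENCODE vM39, 5′ to 3′ on the gene's strand). For Il17f, that start lies inside the gene span given above. Capitals in the windows below mark matches on either strand to AGGTCA, the half-site that RORα binds, and GGAAA, the core that NFAT factors bind.
Il17a, chr1:20800929-20801128: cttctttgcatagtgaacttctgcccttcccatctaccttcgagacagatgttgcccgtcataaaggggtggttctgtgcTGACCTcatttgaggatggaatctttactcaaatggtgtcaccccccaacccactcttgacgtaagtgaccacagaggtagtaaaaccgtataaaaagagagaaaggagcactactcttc
Il17f, chr1:20854496-20854695, minus strand: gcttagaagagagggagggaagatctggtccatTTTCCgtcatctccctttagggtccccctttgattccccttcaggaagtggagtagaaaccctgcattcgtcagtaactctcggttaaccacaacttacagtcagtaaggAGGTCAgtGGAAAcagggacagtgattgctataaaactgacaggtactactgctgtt

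The AGGTCA half-site lies 120 to 115 bases before the canonical transcript start of Il17a, on the opposite strand, and 57 to 52 bases before that of Il17f. It occurs in windows of the same length of 3 of the 7 members (Il17a, Il17f and Il23r) and in 10.6% of the 36979 promoters of genes with counts. GGAAA occurs in 3 members (Rora, Il17f and Il23r) and in 49.1% of promoters. TGANTCA, an AP-1 site, occurs in 5.02% and TTCNNNGAA, a STAT site, in 5.75% of promoters and in 0 of the 7 members. A match describes these letters only.

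Il17a had 1.69, 4.17 and 1.58 CPM in HP1a WT Tconv and 1.39, 11.1 and 20.1 CPM with Treg. One library with Treg was thus the lowest of the 6 and the other two were the highest. HP1a KO had 28.4, 1.67 and 1.21 CPM without and 4.85, 13.7 and 13.6 CPM with Treg, replicate 1 without Treg being the highest of all 23 grafted libraries. HP1g WT had 5.62, 0.957 and 3.59 CPM without and 3.26, 4.56 and 8.10 CPM with Treg, and HP1g KO had 3.35, 4.75 and 1.60 CPM without and 2.20 and 12.1 CPM with Treg. Groups with and without Treg overlapped in all 4 genotype groups, and all 8 grafted groups overlapped their neighbours in the order of means, from 2.48 CPM (HP1a WT without Treg) to 10.9 CPM (HP1a WT with Treg). The Treg effect in HP1a WT was 2.17 (SE 0.871, adjusted p = 0.194), not called by edgeR and called by DESeq2 (2.16, adjusted p = 0.0364).

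Il17f had 0.6004, 0.699 and 0.136 CPM in HP1a WT Tconv and 0.597, 7.75 and 7.96 CPM with Treg. Replicate 1 with Treg was again within the range without Treg. HP1a KO had 3.91, 0.580 and 0.0952 CPM without and 2.55, 9.94 and 13.98 CPM with Treg. HP1g WT had 1.51, 0.0228 and 0.186 CPM without and 2.50, 1.70 and 1.86 CPM with Treg, with no overlap, and HP1g KO had 0.799, 0.697 and 0.0876 CPM without and 0.779 and 4.06 CPM with Treg. In HP1a WT the log2 fold change with Treg was 3.53 (SE 1.02, adjusted p = 0.0877). DESeq2 called it (3.53, adjusted p = 0.000883), and edgeR did without replicate 1 with Treg (4.05, adjusted p = 0.0321). That library was the lowest of its group in Il17f, and 608 of 16069 genes were called without it. With any other library left out, edgeR did not call Il17f there. At these levels, near the 3-count limit in several libraries without Treg, smaller differences were not detectable. Group means ran from 0.478 CPM (HP1a WT without Treg) to 8.82 CPM (HP1a KO with Treg), each overlapping its neighbour.

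Il23r (chromosome 6, 67391313 to 67468888, minus strand) encodes the chain that makes the IL-23 receptor specific. It had 1.17, 2.20 and 0.897 CPM in HP1a WT Tconv and 0.616, 7.39 and 1.35 CPM with Treg, and in HP1a KO 4.12, 1.23 and 1.17 CPM without and 3.81, 3.60 and 6.34 CPM with Treg. In HP1g WT it had 1.59, 1.32 and 0.453 CPM without and 1.67, 2.14 and 2.21 CPM with Treg. In HP1g KO it had 3.39, 2.29 and 1.75 CPM without and 0.883 and 4.85 CPM with Treg. Only the 3 HP1g WT libraries without Treg stood apart, below those with Treg and below those of HP1g KO without Treg. The KO effect in HP1g Tconv was 1.16 (SE 0.490, adjusted p = 0.588), not called. Il23r shares 582 exon bases with the pseudogene Gm4761, which had at most 0.583 CPM in grafted libraries. The group means of Il23r ran from 1.12 CPM (HP1g WT without Treg) to 4.59 CPM (HP1a KO with Treg), again with overlap between neighbours.

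Il1r1 (chromosome 1, 40264174 to 40356417, plus strand) encodes the signalling receptor for IL-1. HP1a WT had 11.4, 25.8 and 15.96 CPM without and 30.7, 28.8 and 12.8 CPM with Treg, and HP1a KO had 40.1, 39.3 and 18.2 CPM without and 15.6, 48.9 and 27.3 CPM with Treg. HP1g WT had 21.6, 10.75 and 8.14 CPM without and 13.05, 6.91 and 14.1 CPM with Treg. HP1g KO had 13.8, 9.47 and 9.66 CPM without and 17.1 and 29.4 CPM with Treg, and this pair lay above both the HP1g KO libraries without Treg and the HP1g WT libraries with Treg. Group means ran from 10.98 CPM (HP1g KO without Treg) to 32.6 CPM (HP1a KO without Treg), and neighbours overlapped. The Treg effect in HP1g KO was 1.08 (SE 0.301, adjusted p = 0.509), the KO effect with Treg 1.03 (SE 0.370, adjusted p = 0.358) and their interaction 1.30 (SE 0.580, adjusted p = 0.99996). None was called.

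Il17re (chromosome 6, 113435445 to 113447719, plus strand) had 33.8, 28.4 and 61.4 CPM in HP1a WT Tconv and 2.83, 20.2 and 3.14 CPM with Treg. All libraries with Treg lay below all without, as for Rora, which is again a description with no background over all genes. HP1a KO had 78.9, 7.03 and 7.03 CPM without and 26.8, 29.2 and 22.03 CPM with Treg, so that with Treg every KO library lay above every WT library. HP1g WT had 14.1, 8.27 and 9.36 CPM without and 7.78, 15.3 and 20.1 CPM with Treg, and HP1g KO had 14.1, 11.01 and 8.19 CPM without and 3.22 and 25.8 CPM with Treg. The Treg effect in HP1a WT was -2.21 (SE 0.772, adjusted p = 0.147). It was -3.75 (adjusted p = 0.00733) without replicate 2 with Treg, the library of that group highest in Il17re. In that fit 930 of 16143 genes were called. The difference of this effect between the WT cells of the lines was -2.66 (SE 0.929, adjusted p = 0.184), and -4.20 (adjusted p = 0.00903) without the same library. In both comparisons, Il17re was not called with any other library left out.

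Replicate 1 of HP1a KO Tconv stood apart in these genes. It had the highest Il17a and Il17re of all grafted libraries, and in its group the highest level of all 7 members. Ccr6, the chemokine receptor of Th17 cells, had 35.2 CPM there against 7.49 and 3.902 CPM in the other two libraries. Among fits leaving 1 library out, only that without this library called Il17re higher with Treg in HP1a KO (1.91, SE 0.175, adjusted p = 0.0218). Il22 was called there with this library and without it.

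No member was called by edgeR between KO and WT in any state of either line. In HP1a the background was 0% of 15549 genes called in naive cells, where 291 genes had an unadjusted p under 0.05 and DESeq2 called 15 (0.0772% with the replicate block), 0.103% of 15521 in Tconv and 0.123% of 16256 in Tconv with Treg. In HP1g it was 0.00669% of 14939 in naive cells, 0.0437% of 16015 in Tconv (0.462% with the replicate block) and 0% of 17177 in Tconv with Treg, the last with 2028 genes at an unadjusted p under 0.05 and 605 called by DESeq2. DESeq2 called 201 genes (0.702% of those it tested) in HP1a Tconv, 707 (2.47%) in HP1a Tconv with Treg and 258 (0.88%) in HP1g Tconv. With all HP1a libraries in 1 fit, edgeR called 647 of 18016 genes in HP1a Tconv with Treg. None of these HP1a calls was a member. Of the members, 1 was tested in naive cells (Rora) and 7 in the grafted cells. At an unadjusted p under 0.05 there was 1 in HP1a Tconv with Treg (Rora), against 1975 of 16256 genes. There were 3 in HP1g Tconv (Rora, Il22 and Il23r), against 1349 of 16015 genes, and 1 in HP1g Tconv with Treg (Il1r1). There were 0 in HP1a Tconv, against 1324 of 15521 genes, and 0 in naive cells of both lines (863 of 14939 genes in HP1g). Of these members, DESeq2 called 1, Il22 in HP1g Tconv.

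The Treg effect called 0 members in HP1g WT, against 0.0126% of 15903 genes, and 0 in HP1g KO, against 0% of 16991 genes (1294 at an unadjusted p under 0.05, 264 called by DESeq2). In HP1g WT, 2 members had an unadjusted p under 0.05 (Rora and Il22), against 1095 of 15903 genes, and DESeq2 called 1, Il22. In HP1g KO there was 1 (Il1r1) and DESeq2 called 0. The interaction of genotype and Treg called 0 members in HP1a, against 0.139% of 17205 genes. There, 1 member was at an unadjusted p under 0.05 (Rora, which DESeq2 called), against 1675 of all genes. In HP1g the interaction called 0, against 0% of 17833 genes (667 at an unadjusted p under 0.05, 15 called by DESeq2). There, 2 members were at that level (Rora and Il1r1) and DESeq2 called 0. The difference of KO effects with Treg between the lines called 0 members, against 2.72% of 18573 genes. There, 1 was at an unadjusted p under 0.05 (Rora, which DESeq2 called), against 3351 of all genes. The median log2 fold change of the members with Treg was 1.16 in HP1a WT, 0.25 in HP1a KO, 0.64 in HP1g WT and 1.08 in HP1g KO, where the median over all genes tested was 0.03, 0.02, -0.00 and 0.01. With the replicate block the same member medians were 0.54, 1.31, 0.87 and 0.38, so their order depends on the fit.

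**Figure D3:**
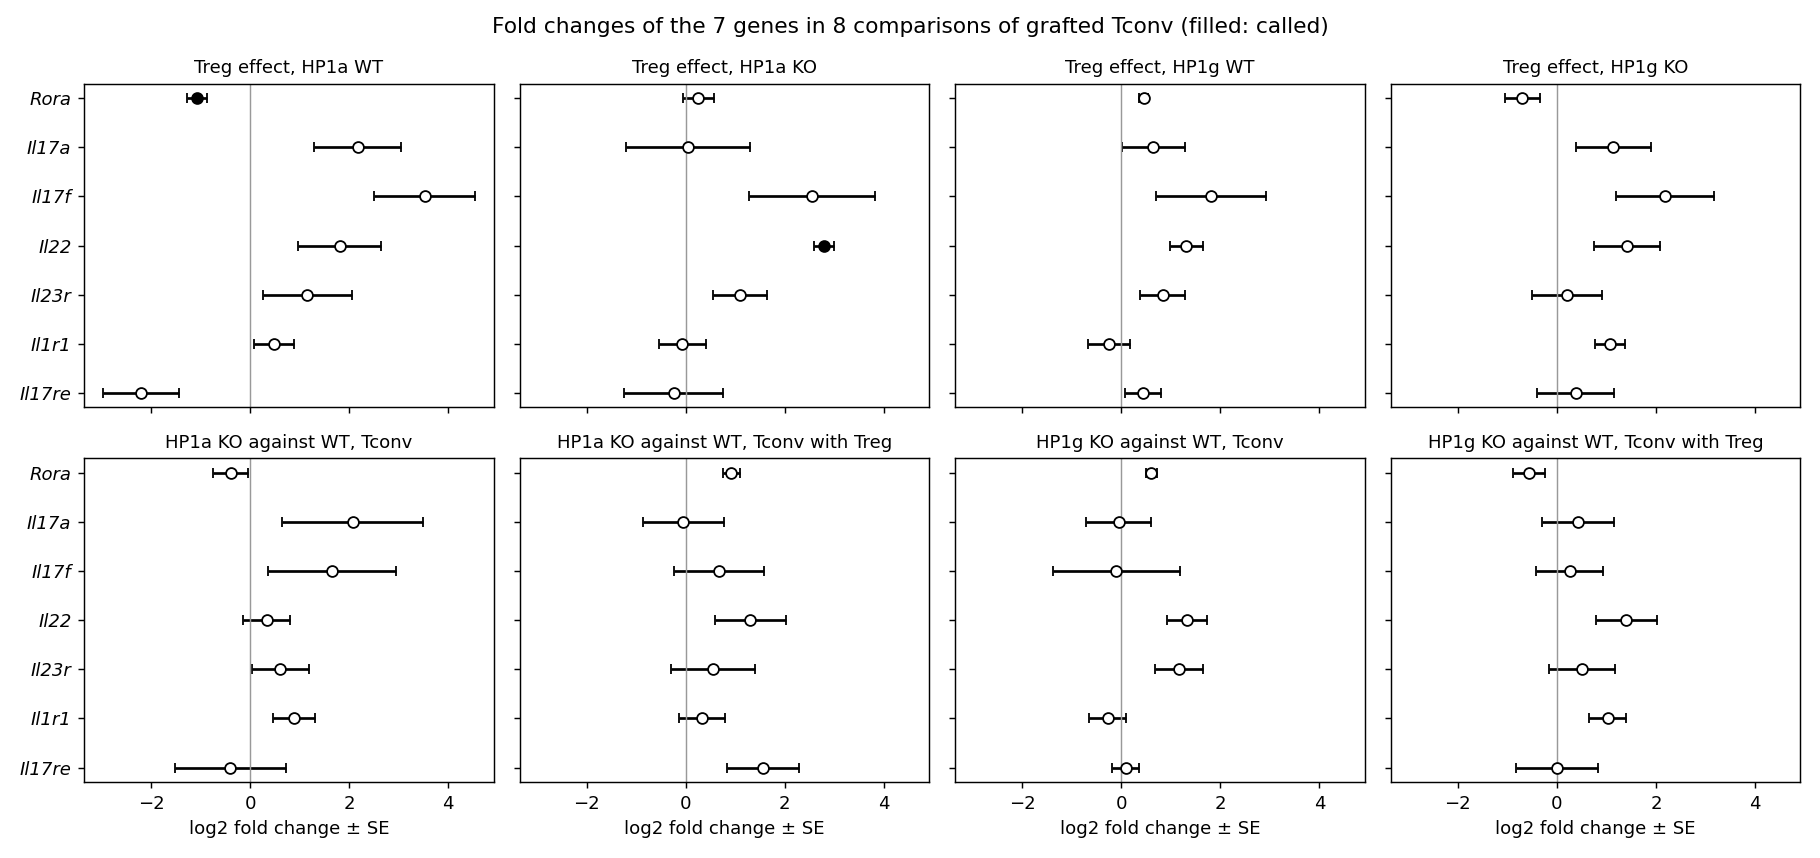
Log2 fold change with its SE (edgeR) of each of the 7 genes for the Treg effect in 4 genotype groups (top row) and KO against WT in grafted cells (bottom row), filled where called. Of 56 values, 2 are filled: Rora in HP1a WT (-1.07) and Il22 in HP1a KO (2.79).

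Other genes of the pathway moved in both directions with Treg in HP1a WT. Of 11 Th17 transcription factors tested, 2 were called higher and 2 lower. Maf, which regulates IL-10 and IL-21, rose by 1.83 (adjusted p = 0.0261) and Batf, an AP-1 factor needed for Th17 cells, by 1.20 (adjusted p = 0.00445). Ahr, the ligand-activated receptor that drives Il22, fell by 1.69 on the log2 scale (adjusted p = 0.0145) and Rbpj, the DNA-binding partner of Notch, fell by 1.23 (adjusted p = 0.00538). Of 4 Th17 cytokine and homing genes tested, Il21 rose by 5.98 (adjusted p = 0.00212), from 1.71 to 5.38 CPM to between 104 and 310 CPM, and Csf2 fell by 2.34 (adjusted p = 0.00949).

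Among 14 genes listed as receptors and signalling of the inducing cytokines, 1 was called: Il1rl1, the IL-33 receptor, fell by 2.83 (adjusted p = 0.0117). IL-33 is not among the inducing cytokines named at the start. Il1rl1 is also in the list of innate lymphoid markers, so this is the call already given there. Among 6 further Th17-associated genes, Il18r1 fell by 1.54 (adjusted p = 0.00910) and Ltb4r1, a leukotriene receptor, fell by 3.28 (adjusted p = 0.00603). Of the 5 genes of the IL-17 receptor family and its adaptor, 0 were called, and 0 of the 7 IL-17 and IL-22 family paralogs passed the filter there. In HP1a KO, the 1 pathway gene called with Treg was Il22b, and in HP1g WT and HP1g KO there were 0. Between the WT cells of the lines the Treg effect on Il21 differed by 4.27 (adjusted p = 0.0129) and that on Il18r1 by -1.87 (adjusted p = 0.0142). With Treg, the KO effect differed between the lines for Il21, by -5.66 (adjusted p = 0.0149), for Il1r2, a decoy IL-1 receptor, by -4.61 (adjusted p = 0.0254), for Batf by -2.34 (adjusted p = 0.0162), for Maf by -2.25 (adjusted p = 0.0380) and for Il18r1 by 2.30 (adjusted p = 0.0378), HP1a minus HP1g.

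From naive to Tconv, more genes of these lists were called higher than lower, as was so over all genes (2067 higher and 1635 lower in HP1a WT, 1961 and 1142 in HP1a KO, 2371 and 1352 in HP1g WT, 2506 and 1162 in HP1g KO). Of the transcription factors, 5 to 7 of 11 were called higher in the 4 genotype groups and 0 lower, with Ahr, Maf and Rbpj higher in all 4. Of the cytokine and homing genes, the 4 tested (Ccr6, Csf2, Il21 and Il22b) were at or near 0 in naive libraries and passed the filter only through Tconv, so their calls as higher were fixed by the filter. In the receptor and signalling list 3 to 6 were called higher and 2 lower, the latter Il6ra and Il6st, the 2 chains of the IL-6 receptor.

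Over the 23 grafted libraries the cytokines and Il23r varied together, and their correlations with Rora were low. The values below are correlations of log2(CPM + 1) across libraries of different groups that share their depth and sort, given as a description. Il17a and Il17f had Pearson's r = 0.865 (Spearman's rho 0.895), Il22 and Il23r 0.835 (0.814), and Il17f and Il22 0.810 (0.830). Rora had 0.125 with Il17a, 0.087 with Il22 and 0.629 with Il17re. Ccr6 had 0.831 with Il17a and 0.045 with Rora.

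**Figure D4:**
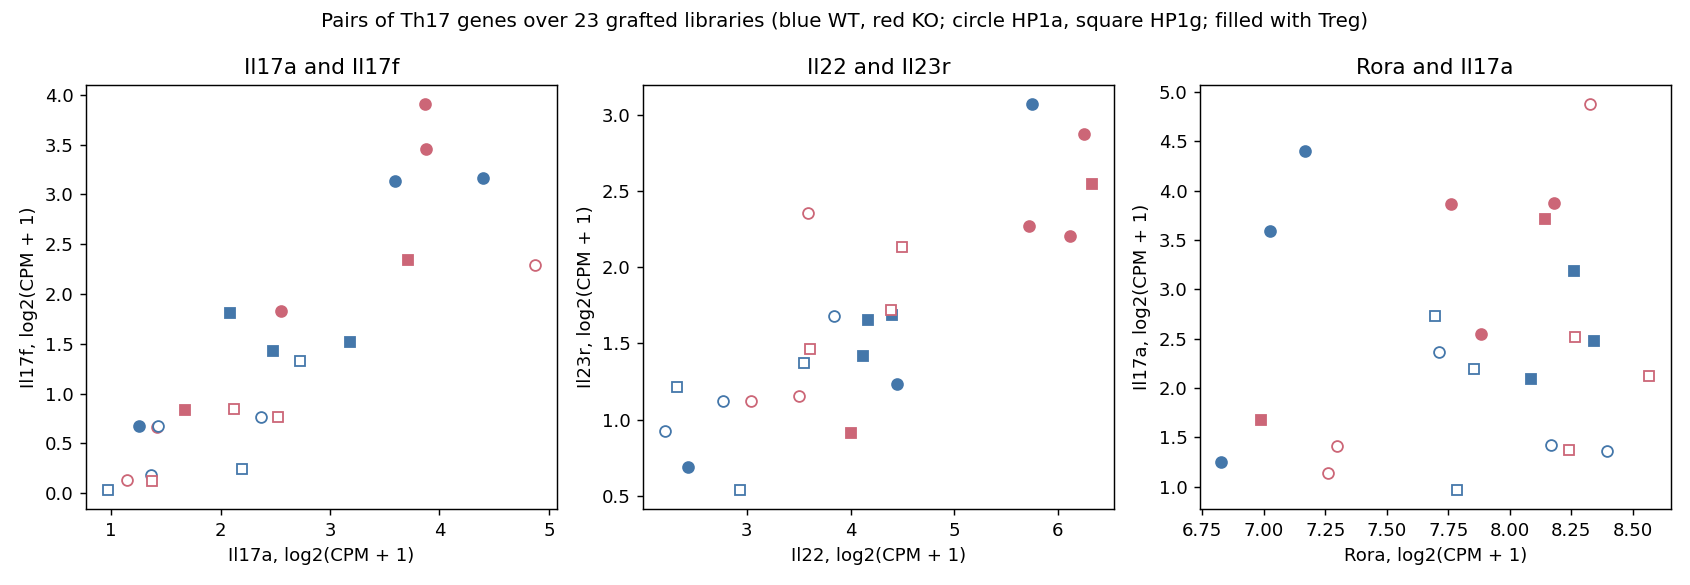
Pairs of genes over the 23 grafted libraries, each axis log2(CPM + 1), circles for the HP1a and squares for the HP1g line, blue WT and red KO, filled with Treg. Libraries high in Il17a were high in Il17f (r = 0.865) and those high in Il22 were high in Il23r (r = 0.835), while Il17a and Rora had r = 0.125.

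Over the 12 group means of log2(CPM + 1), naive groups included, the genes most like each member among 11798 were those that were likewise low in naive and higher in grafted cells. For Rora they were Ryr1 (r = 0.994), Emp1 (0.994) and Cxcr3 (0.994), for Il17a Xkr6 (0.981), Ccr6 (0.975) and Rnf43 (0.971), and for Il17f Lrrk2 (0.954), Slc35f5 (0.941) and Il22b (0.941). For Il22 they were Tgm2 (0.982), Hlf (0.978) and Ezh2 (0.976), and for Il23r Caskin2 (0.979), Hlf (0.974) and Acot11 (0.973). For Il1r1 they were Fam89a (0.990), Pcyox1l (0.986) and S100a4 (0.986), and for Il17re Scart1 (0.996), Morc1 (0.987) and Itgb5 (0.986).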

How the data were processed

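Polyadenylated RNA of 36 libraries was amplified from small inputs with a SMART-Seq kit that keeps no strand, so reads of a gene and of a gene overlapping it on the other strand cannot be told apart. The deposited values are estimated counts per gene, which the authors made with STAR and Salmon on GRCm39, per the labels and the study's methods, and 82.91% of them were whole. They were rounded to whole numbers and tested with edgeR 4.0.16 (quasi-likelihood test, TMM normalisation, low-count filter by group) in R 4.3.3, in each of 18 comparisons with the libraries of the groups compared only. Calls needed an adjusted p under 0.05 (Benjamini-Hochberg over all genes tested) and a log2 fold change beyond 1. CPM are counts scaled to the library total, with TMM factors over the 35 libraries. Alternatives were DESeq2 1.42.0, its size factors in edgeR, no low-count filter, no fold threshold, 1 fit for all libraries of a line, the replicate number as a block, inclusion of the excluded library and exclusion of each library in turn. Scripts were tested on simulated data.

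The members and gene lists were chosen with earlier results of these data known. Named genes were all members, every gene of the 6 Th17 and IL-17 family lists that was called, and for each member the 3 genes with the most similar group means. Genes of other cell-type lists named beside the results, Ccr6, the copy Il22b and the overlapping pseudogene were chosen after their values were seen. The 34 pairs of replicates differed beyond sampling noise (lowest chi-square per gene 8.366), so no library was counted with another. Same-numbered libraries were taken as paired where the deviations of every one of 3 pairs correlated above 0.1, which held for naive HP1a KO against WT (0.287 to 0.654) and HP1g KO against WT Tconv (0.112 to 0.431), as a property of the data that no label states. Promoter windows came from GENCODE vM39 and the GRCm39 sequence. One gene that the rule also named is not reported here.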

Additional observations from a re-analysis of the deposited data

Results flagged for a closer look

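The response of Rora to Treg in WT Tconv differed between the lines by -1.54 on the log2 scale (HP1a WT minus HP1g WT), which drew attention because the test of the difference itself passed the threshold. The mean went from 277 to 128 CPM with Treg in HP1a WT and from 219 to 300.3 CPM in HP1g WT. Over all genes, Treg called 932 of 15627 in HP1a WT and 2 of 15903 in HP1g WT. Line, batch and any difference in Treg ratio cannot be told apart.

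The excluded library of HP1g KO Tconv with Treg, which entered no comparison, had 4 members above every grafted HP1g WT library, which is what drew attention. Its level, scaled together with all libraries, was 72.5 CPM for Il17a (1133 counts), 19.6 CPM for Il23r (306 counts), 359 CPM for Il1r1 (5611 counts) and 52.6 CPM for Il17re (821 counts). On that scale the highest of the other grafted libraries had 27.4 CPM for Il17a, 7.19 CPM for Il23r, 47.4 CPM for Il1r1 and 76.2 CPM for Il17re. The same library had 0 counts of Il17f and 13 counts of Il22. The study excluded it for abnormal GC content, share of reads in exons and bias along transcripts. The part of that quality in these levels was not tested.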

How the results depend on the processing

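The number of members called stayed within 1.5 times in 104 of 112 alternative counts over all libraries and in 118 of 128 counts with 1 library left out. This compares numbers rather than genes and includes counts of 0 against 0. For Treg in HP1a WT, 1 member was still called without replicate 1 or replicate 2 of the group with Treg. It was Il17f and Il17re, respectively, in place of Rora. DESeq2 called 1 member for HP1g KO against WT in Tconv (0.88% of all genes it tested), 3 for Treg in HP1a WT (6.19%), 1 for Treg in HP1g WT (0.179%), 1 for the HP1a interaction (1.12%) and 1 for the difference of KO effects (4.55%). That difference also had 1 call with no low-count filter and 1 with all libraries in 1 fit, where Treg in HP1a KO had 0. With single libraries left out, the calls ranged from 0 to 1 for KO against WT with Treg in HP1a and in HP1g, for Treg in HP1a WT, for both interactions and for the difference of KO effects, from 0 to 2 for Treg in HP1a KO and from 1 to 2 for the difference of WT Treg effects. For Tconv against naive they ranged from 4 to 7 in HP1a KO and from 6 to 7 in HP1a WT and HP1g KO. Over all genes, outside Tconv against naive, edgeR called 0 to 932 genes a comparison and DESeq2 15 to 1754. The cause was not tested. With the replicate block the number of members called changed in no comparison and was again 0 in both comparisons taken as paired, where it called 12 and 74 of all genes (naive HP1a, 0 without the block, and HP1g Tconv, 7 without it). With the excluded library, the HP1g KO mean with Treg was 28.8 CPM for Il17a, 8.39 CPM for Il23r and 135 CPM for Il1r1, against 7.15, 2.87 and 23.2 CPM. Over all 110 fold changes, 24 of 704 values under other settings and 77 of 800 with 1 library left out changed sign. All were at an unadjusted p of at least 0.05. The 704 include the setting with no fold threshold, which keeps the main fold changes and so could not change a sign. Depth limits Il17f, which had a few counts in several grafted libraries, and all members but Rora in naive cells.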
